A study of Homo sapiens with 12 samples.

Results

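Small nucleolar RNA (snoRNA) host genes that are long noncoding RNAs were examined in THP-1 macrophages that carried either a miR-122-5p mimic, a synthetic copy of that microRNA, or a control mimic. The members were chosen by name: every gene of the count table called SNHG with a number, together with GAS5, ZFAS1, DANCR and EPB41L4A-AS1. Of 58735 genes in the table, 34 met the rule, 29 by their GENCODE 29 name and 5 by their current name alone (SNHG29, SNHG30, SNHG31, SNHG32 and SNHG33). A mean of at least 10 counts over the 12 libraries was reached by 27 of the 34, and the same 27 passed the filter on low counts and were tested. The annotation files SNHG32 and 1 of its 2 entries named SNHG28 as protein coding.

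THP-1 is a human monocytic leukaemia line. Cells of both groups received 30 nM of a mimic for 24 h, were rested, and were then stimulated for 4 h with lipopolysaccharide (LPS), so the control libraries are also from transfected and LPS-stimulated cells. Each group had 6 libraries. No label ties a library to a culture of its own, so the p-values rest on the spread among libraries, part or all of which may be technical. Because RNA was taken from whole cultures, fewer cells with an RNA and less of it per cell cannot be told apart.

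A snoRNA host gene carries snoRNAs in its introns. Splicing frees the intron, the snoRNA is trimmed out of it and packed with core proteins, and it then guides chemical modification of ribosomal and spliceosomal RNA. Box C/D snoRNAs guide ribose methylation with fibrillarin, and box H/ACA snoRNAs guide pseudouridylation with dyskerin. The spliced exons of many noncoding hosts, GAS5 being the classic case, are exported, meet ribosomes and are removed by nonsense-mediated decay, the pathway that destroys messages with an early stop codon. Several hosts, like ribosomal protein genes, start their transcripts with a C and a run of pyrimidines, the 5′ terminal oligopyrimidine (TOP) type of start, which ties translation to growth signals through mTOR and LARP1.

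The microRNA is shown for its seed, bases 2 to 8 in capitals, and the starts of 7 members are shown because they differ in the TOP-type run. Each start window holds the 8 bases before the RefSeq start and the 22 from it on, on the strand of the gene, with the run in capitals where it has at least 5 bases.
miR-122-5p: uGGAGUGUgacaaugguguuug
SNHG5: acttcggtCTTTTacgtcggccttcgcgag
ZFAS1: cattcgttCTTTCgcgtctgcggtgcccgg
SNHG12: ttcagcgcCCTTTCTCCCCgccgcattccc
SNHG19: gcccctgtCTTTTCggggtcgagtccgagg
SNHG4: cccggctgCCCTTTCCCCTCCggcctctgc
SNHG1: gattcgttctcatttttctactgctcgtgg
GAS5: atgaattcagatgtgtttattttggagcct

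These starts are those of RefSeq on GRCh38. In the windows of SNHG1 and GAS5 no C followed by at least 4 C or T began at the start base. The start of SNHG5 is at position 85678733 of chromosome 6 (minus strand), that of ZFAS1 at 49278642 of chromosome 20 (plus strand) and that of GAS5 at 173869045 of chromosome 1 (minus strand). GENCODE 29 puts the outermost start of ZFAS1 at 49278178 and that of GAS5 at 173868882, and the bases there were not examined. A RefSeq start was found for 29 of the 34 members, and 7 of the 29 (24.1%) began with a TOP-type run. Among all 35116 RefSeq starts the share was 4.07%. The other members with the run were SNHG32 and SNHG18.

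The host RNAs were higher as a group in the miR-122-5p libraries. Of the 27 tested members, 19 rose and none fell at an adjusted p under 0.05, while 24.2% of all 15471 tested genes rose, 26.2% fell and 50.4% changed in either direction. At an unadjusted p under 0.05 the count of members lower was also 0 by edgeR, DESeq2 and limma-voom. The median log2 fold change (miR-122-5p over control) of the 27 was 0.46, with a range of -0.40 to 1.21, and 23 of the 27 values were above 0. The median over all tested genes was 0.01. Of 1594 other long noncoding RNA genes tested, 12% rose and 13.4% fell, with a median log2 fold change of 0.05. Those genes were measured less precisely: their median standard error (SE) was 0.33, against 0.12 for the members. No library of one group reached into the range of the other for 9 members, all of them higher with miR-122-5p. Over all tested genes this held for 29.5%, for 13.4% on the higher side. The 9 were SNHG5, SNHG7, SNHG8, SNHG12, SNHG15, SNHG16, SNHG29, SNHG32 and DANCR.

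Summed over all 34, the members held 0.0849 to 0.0896% of the gene counts in the miR-122-5p libraries (0.0868% ± 0.00173, SD, n = 6). In control libraries they held 0.0526 to 0.0667% (0.0584% ± 0.00478, SD, n = 6). The ranges did not overlap, and control replicate 1 was the highest of its group.

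**Figure D1:**
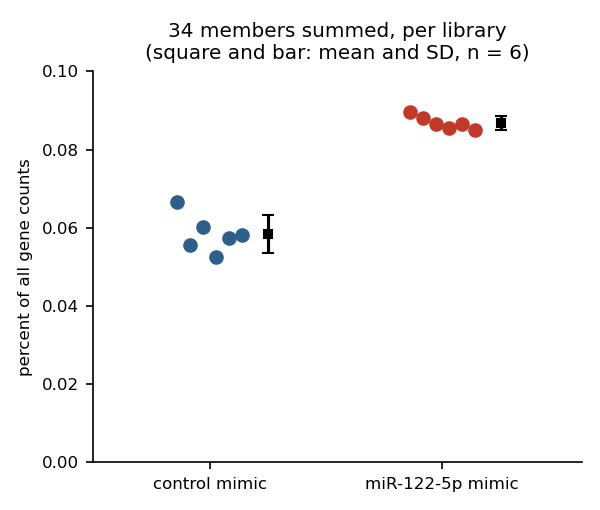
Counts of the 34 snoRNA host genes summed and divided by all gene counts, in percent, for each of 6 control and 6 miR-122-5p libraries (points), with the mean and SD of each group (square and bar). The miR-122-5p libraries lie between 0.0849 and 0.0896% and the control libraries between 0.0526 and 0.0667%.

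The libraries held 29473750 to 39468157 gene counts. Their trend with transcript GC content separated the groups: the slope of log2 level on GC, per 10 percentage points, was 0.03 to 0.23 in the miR-122-5p libraries and -0.32 to 0.01 in the control libraries. The slope comes from the same counts and its ranges did not overlap, so a GC trend and the mimic cannot be told apart. The results were refitted in 2 further ways, one that removed each library's trends with GC and length and one with the GC slope as a covariate. In the first, 18 members rose and none fell, beside 22.9% of all tested genes rising and 46.8% called in either direction, and the members' median was 0.43. In the second, 14 rose and none fell, beside 7.37% of genes rising, 12.3% falling and 19.7% called in all, and their median was 0.55. Of 4940 tested genes in the members' middle range of GC content (43.9 to 52.9%), 879 rose and 1345 fell, with a median of -0.04. Of the macrophage markers CD14, CSF1R and FCER1G fell and TYROBP and ITGAM rose. The 3 falls were also called in both GC fits and the 2 rises in neither. SPI1, not called without the GC terms, fell in both GC fits (log2 -0.33 in each). LYZ and CD33 rose in the GC and length fit only (log2 0.31 and 0.30). CD68 had 92 counts in all and was not tested. The summed level of the 9 markers overlapped between groups (2458 to 2985 CPM, the count scaled to the library total, with miR-122-5p and 2425 to 2792 in controls). Of the listed markers of other cell types, CD3D, CD3E, CD2 and EPCAM had 0 counts. The summed B cell markers reached 5.66 CPM with miR-122-5p and 5.02 in controls, with CD79A the called one (log2 fold change 0.56 ± 0.20, SE). The fibroblast markers reached 4.18 and 4.42 CPM. The hepatocyte list stood at 11.2 to 13.9 CPM with miR-122-5p and 6.45 to 8.63 in controls. Nearly all of it was APOA1 (medians 12.2 and 7.07 CPM), which rose (0.78 ± 0.11). APOA1 was called in the GC and length fit (log2 0.35) and not with the GC slope as a covariate (log2 0.51, adjusted p = 0.0503). ALB had 57 counts in all and TTR 30, and neither was tested. The part of these markers in the results was not tested.

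**Figure D2:**
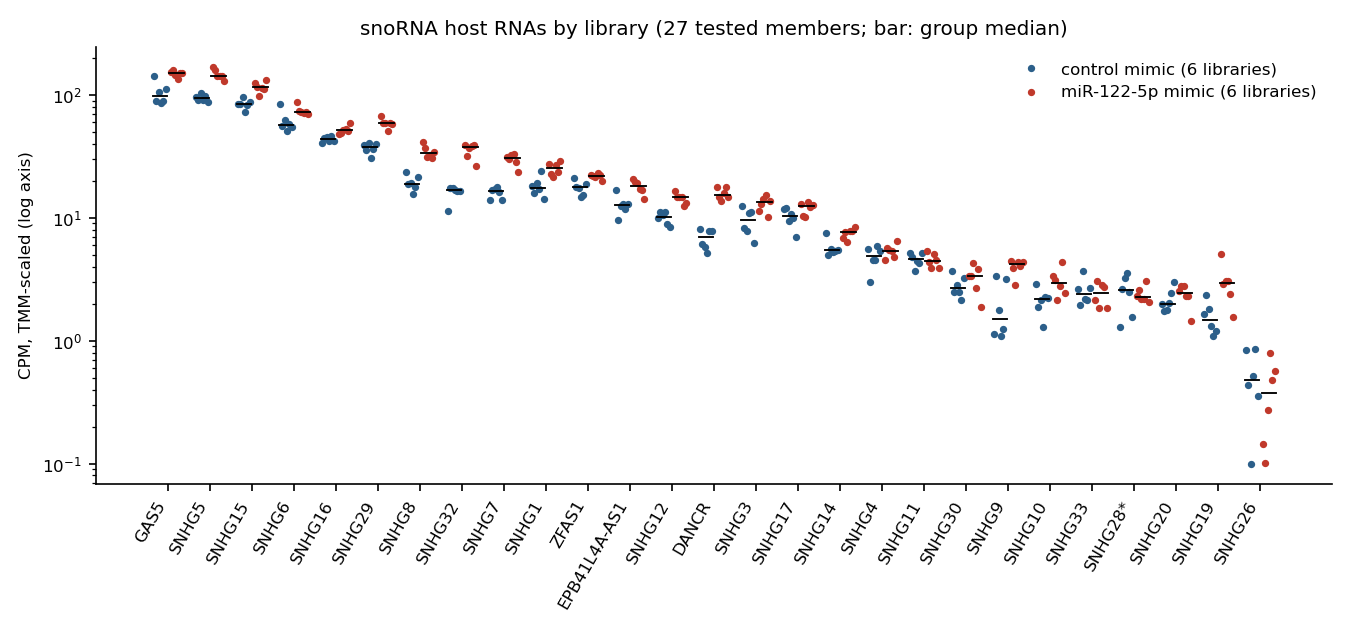
Level of the 27 tested members in every library, in CPM scaled by TMM factors on a log axis, ordered by mean level, with control libraries in blue, miR-122-5p libraries in red and a bar at each group median. The members that stand clear of their controls include SNHG5, SNHG8, SNHG32, SNHG7 and DANCR, while the points of SNHG11, SNHG33 and SNHG20 overlap. The asterisk marks the SNHG28 entry annotated as protein coding.

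Among hosts of box C/D snoRNAs, 9 of the 11 tested members that carry only this class rose. SNHG5, which carries SNORD50B in the annotation, stood at 129.8, 142.8 and 169.1 CPM in the miR-122-5p libraries and at 87.9, 94.0 and 102.8 in controls (lowest, median and highest). Every miR-122-5p library lay above every control, and the rise was 1.56-fold (log2 0.64 ± 0.07, SE, adjusted p = 6.31e-08). With each library left out in turn its log2 fold change stayed between 0.60 and 0.68.

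SNHG32, host of SNORD48 and SNORD52, stood at 26.5, 37.7 and 39.4 CPM with miR-122-5p and at 11.4, 16.8 and 17.5 in controls. Its groups did not overlap, and the lowest control was replicate 1. The rise was 2.21-fold (log2 1.14 ± 0.11, adjusted p = 7.74e-09). The log2 value was 1.08 after the GC and length correction and 0.66 with the GC slope as a covariate, where it was still called. Its exons share 23.2% of their length with AL671762.1 on the same strand, so reads there cannot be given to one of the pair.

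SNHG6, host of SNORD87, stood at 70.5, 72.7 and 87.1 CPM with miR-122-5p and at 51.2, 57.1 and 85.0 in controls. Here the groups overlapped, because control replicate 1 lay above 5 of the 6 miR-122-5p libraries. The rise of 1.22-fold (log2 0.28 ± 0.10, adjusted p = 0.0192) missed the threshold without miR-122-5p replicate 1 (log2 0.24, adjusted p = 0.0552). Its log2 value was 0.43 after the GC and length correction and 0.54 with the GC slope as a covariate, and both passed. A share of 29.3% of its exonic length is covered by MCMDC2.

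ZFAS1, known from mammary development and the host of the SNORD12 family, stood at 19.98, 21.9 and 23.1 CPM with miR-122-5p. In controls it stood at 14.8, 17.7 and 20.9, so the groups overlapped at 1 end. It rose 1.24-fold (log2 0.31 ± 0.09, adjusted p = 0.00610). The call was lost after the GC and length correction (log2 0.11, adjusted p = 0.343) and with the GC slope as a covariate (log2 0.43, adjusted p = 0.0590).

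SNHG19, host of SNORD60, was a weakly expressed member, at 1.55, 2.96 and 5.04 CPM with miR-122-5p and 1.09, 1.48 and 2.34 in controls, with overlapping groups. It rose 1.91-fold (log2 0.94 ± 0.25, adjusted p = 0.00277). With the GC slope as a covariate nothing of it was left (log2 0.00, adjusted p = 0.998). The other called hosts of this class were SNHG29 (log2 0.67 ± 0.08), SNHG1 (0.48 ± 0.11), SNHG14 (0.39 ± 0.13) and SNHG16 (0.26 ± 0.07). With the GC slope as a covariate SNHG14 was at 0.78 and called, and SNHG16 was at 0.30 and not called (adjusted p = 0.0697). SNHG1 is the host of SNORD25 to SNORD28 and their neighbours, and SNHG14 is the long transcript over the imprinted SNORD115 and SNORD116 clusters. Not called were SNHG30 (0.20 ± 0.20) and SNHG26 (-0.40 ± 0.51), which had a mean of 15.6 counts.

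Among hosts of box H/ACA snoRNAs, 7 of the 11 tested members that carry only this class rose. DANCR, known for holding back differentiation of progenitor cells and host of SNORA26, stood at 13.8, 15.3 and 17.9 CPM with miR-122-5p and at 5.19, 6.98 and 8.16 in controls. The lowest miR-122-5p library was well above the highest control. DANCR had the largest fold change of the 27, 2.32-fold (log2 1.21 ± 0.12, adjusted p = 1.31e-08), and 1.06 on the log2 scale after the GC and length correction.

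SNHG7, host of SNORA17A and SNORA17B, stood at 23.5, 30.6 and 32.9 CPM with miR-122-5p and at 13.9, 16.5 and 17.7 in controls, without overlap. It rose 1.87-fold (log2 0.90 ± 0.09, adjusted p = 2.72e-08). Its longest transcript is GC rich (65.9%), and after the GC and length correction its log2 fold change was 0.38 (adjusted p = 0.000207), and with the GC slope as a covariate it was 0.55 (adjusted p = 0.00850). SNHG8, host of SNORA24, stood at 30.6, 33.6 and 41.0 CPM with miR-122-5p and at 15.8, 18.9 and 23.6 in controls, again without overlap. It rose 1.78-fold (log2 0.83 ± 0.10, adjusted p = 1.85e-07), and by 0.78 on the log2 scale after the correction.

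SNHG9, host of SNORA78, stood at 2.82, 4.21 and 4.45 CPM with miR-122-5p and at 1.09, 1.504 and 3.34 in controls, where the groups overlapped. It rose 2.04-fold (log2 1.03 ± 0.26, adjusted p = 0.00181). Like SNHG7 it is GC rich (66.5%), and the call was lost after the GC and length correction (log2 0.42, adjusted p = 0.154) and with the GC slope as a covariate (log2 0.56, adjusted p = 0.460). EPB41L4A-AS1, host of SNORA13, stood at 14.2, 18.3 and 20.6 CPM with miR-122-5p and at 9.60, 12.7 and 16.95 in controls. It rose 1.40-fold (log2 0.49 ± 0.12, adjusted p = 0.00119) with overlapping groups, and 49.6% of its exonic length is shared with EPB41L4A on the other strand.

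The other called H/ACA hosts were SNHG15 (log2 0.46 ± 0.08), the host of SNORA9, and SNHG3 (0.44 ± 0.14), the host of the SNORA73 pair. SNHG3 was at 0.80 with the GC slope as a covariate and still called. SNHG17 (0.24 ± 0.12) and SNHG11 (-0.02 ± 0.14), which carry members of the SNORA71 family, were not called, nor were SNHG4 (0.16 ± 0.15) and SNHG33 (-0.08 ± 0.20). SNHG17 passed without control replicate 2 (log2 0.30, adjusted p = 0.0495). SNHG4 passed after the GC and length correction (log2 0.37, adjusted p = 0.0298) and with the GC slope as a covariate (log2 0.87, adjusted p = 0.0141).

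SNHG12, the 1 tested member with both classes, rose (log2 0.53 ± 0.10, adjusted p = 0.000151) without overlap of the groups, and missed the threshold with the GC slope as a covariate (log2 0.21, adjusted p = 0.440). GAS5 is known as a host of box C/D snoRNAs and as an RNA that accumulates in growth arrest and binds the glucocorticoid receptor. It was the member with the most counts, although no snoRNA entry of the annotation used here lay in its span. GAS5 stood at 135.5, 151.0 and 160.0 CPM with miR-122-5p and at 86.5, 98.1 and 143.2 in controls. The overlap came from control replicate 1, the only control above the lowest miR-122-5p library. GAS5 rose 1.43-fold (log2 0.51 ± 0.10, adjusted p = 1.43e-04), with a range of 0.47 to 0.63 when each library was left out in turn. The log2 value was 0.73 after the GC and length correction and 0.88 with the GC slope as a covariate. SNHG10 rose (0.52 ± 0.21, adjusted p = 0.0404), but lost the call in 7 of the fits that left out a library. SNHG20 (0.13 ± 0.20) and SNHG28 (-0.04 ± 0.22) were not called. The second SNHG28 entry lies wholly under exons of the first and of VSIG8 and had 0 counts, so the reads of the 2 entries cannot be told apart.

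**Figure D3:**
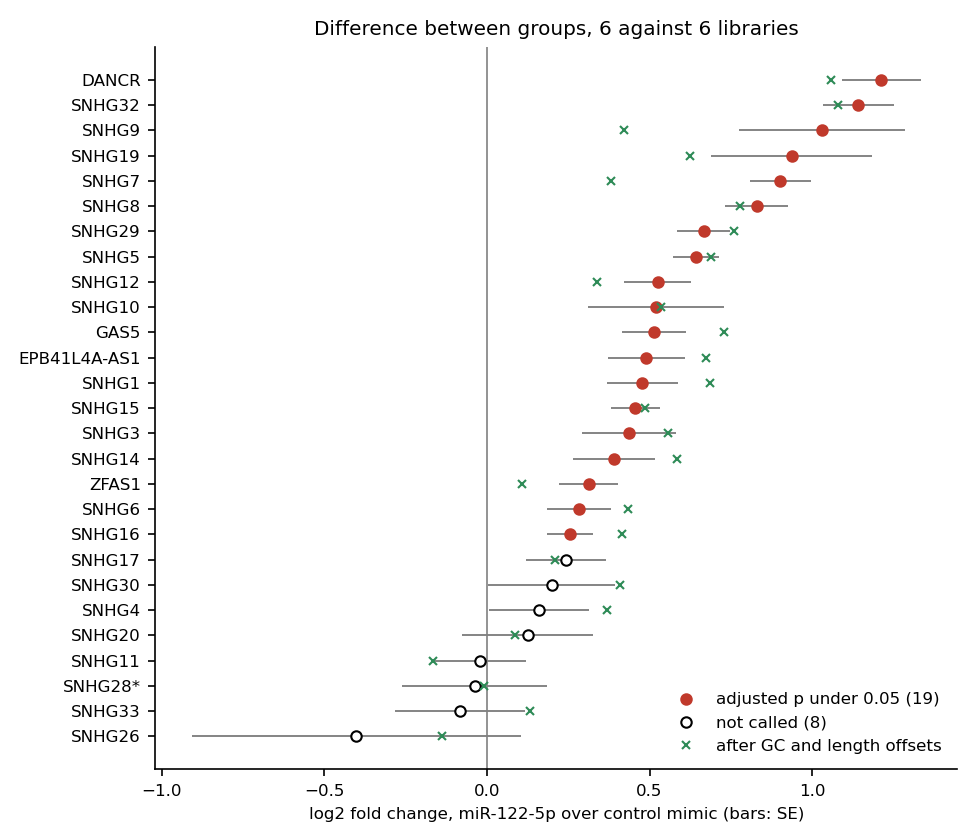
Log2 fold change (miR-122-5p over control mimic) of the 27 tested members with its SE, filled where the adjusted p was under 0.05 (19) and open where it was not (8), with crosses at the value after removal of each library's trends with GC content and length. The values run from -0.40 (SNHG26) to 1.21 (DANCR), and the crosses of the GC-rich SNHG7 and SNHG9 lie far to the left of their points.

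Calls were more frequent among the abundant members. Of 16 members with a mean of at least 300 counts, a limit set after the values were seen, 15 rose and only SNHG17 did not pass. Of the 11 below it, 4 rose (SNHG14, SNHG9, SNHG10 and SNHG19). In the first set all 16 log2 fold changes were above 0, with a median of 0.50, and in the second 7 were above and 4 below, with a median of 0.16. The median SE was 0.10 in the first set and 0.20 in the second, and whether the second set changed less or was only measured less precisely was not tested. Among 16 members with less than 10% of their exonic length shared with another gene, 10 rose, and 9 of the 11 with more sharing rose. Of the 6 tested members with a TOP-type RefSeq start 5 rose (SNHG5, SNHG32, ZFAS1, SNHG12 and SNHG19), with a median log2 fold change of 0.58, and SNHG4 was not called. Of the 17 tested members with another RefSeq start 11 rose, with a median of 0.44. The class of a member rests on the single RefSeq start used, which for many members differs from the outermost GENCODE 29 start. GAS5, SNHG1, ZFAS1, SNHG5, SNHG12 and SNHG32 are among them. For SNHG12 the positions are 28581873 in RefSeq and 28583132 in GENCODE 29, and for SNHG32 31834916 and 31834608. With another start a member could change class, so the medians of the classes are uncertain.

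Levels were compared between members per length of exon. Per kilobase of annotated exon, SNHG6 was the most abundant (54.5 CPM per kb over the 12 libraries), followed by SNHG5 (43.1), GAS5 (35.0), SNHG8 (29.2) and SNHG15 (27.5). SNHG6 stood at 59.9 ± 5.01 CPM per kb with miR-122-5p and 49.2 ± 9.78 in controls (SD, n = 6), SNHG5 at 52.5 ± 4.99 and 33.7 ± 2.01. Neighbours in this order mostly overlapped: of 26 neighbouring pairs the ranges overlapped for 20 with miR-122-5p and for 22 in controls. SNHG6 and SNHG5 overlapped with miR-122-5p, whereas SNHG5 lay above GAS5 there in every library. GAS5 overlapped SNHG8. The span from the highest to the lowest tested member was 402-fold with miR-122-5p and 374-fold in controls. The lowest were SNHG26 with miR-122-5p, at 3 to 25 counts per library, and SNHG14 in controls. Length here joins the exons of all annotated transcripts, 43324 bases for SNHG14, whose longest transcript has 13074. The order and the span therefore depend on the annotation.

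The 7 members below a mean of 10 counts had too few for a test. SNHG21 had a mean of 7.25 counts, with 5 to 22 per miR-122-5p library and 0 to 7 per control library. SNHG27 had 4 to 12 and 0 to 4. SNHG25 had 4 to 7 and 0 to 4. The groups of these 3 touched or overlapped. SNHG31 had a mean of 1 count and SNHG22 of 0.167, and SNHG18 and the second SNHG28 entry had 0 in all libraries. SNHG18 begins with a TOP-type run but was not detected.

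Members with a match to the miR-122-5p seed and members without one were both mostly higher, and none of either kind fell. In at least 1 annotated transcript, 12 of the 27 tested members (44.4%) held ACACTCCA, ACACTCC or CACTCCA, read on the strand of the transcript, each longer word counted once. Of the other long noncoding RNA genes tested, 35.0% held one. With the longest transcript in place of all transcripts, the shares were 33.3% and 30.9%. The 12 with a match had a median log2 fold change of 0.41, and 8 of them rose. The 15 without one had a median of 0.49, and 11 rose. An ACACTCCA word was present in 3 members. Shown are the words of 3 members that differ in how many of their transcripts hold them, with the word in capitals.
SNHG14: agatcatgACACTCCAatgaccat
SNHG16: gacatggcCACTCCAgtcggtgt
SNHG1: tctgtgttCACTCCAggctgaag

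The word of SNHG14 was in 1 of its 26 annotated transcripts. By contrast the word of SNHG16 was in 7 of 8 and that of SNHG1 in 17 of 25. SNHG16 and SNHG1 were both higher (log2 0.26 and 0.48). Which transcripts the cells made cannot be read from counts per gene.

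Few reads were counted at the snoRNAs themselves. Within the spans of 32 members and on their strand lay 148 annotated snoRNA genes, 84 of them in SNHG14, and 123 had 0 counts in all libraries. All 51 that lie under an exon of a host transcript had 0 counts, and of the 97 with no host exon over them 25 had any count. Where host and snoRNA overlap, a count of 0 also results when reads shared by genes are left out, so these zeros do not show that the snoRNAs were missing from the libraries. SNORD104, the box C/D snoRNA of SNHG25, was the only one tested. It had 13 to 31 counts per miR-122-5p library and 0 to 10 per control library, with no overlap, and its log2 fold change was 2.64 ± 0.59 (adjusted p = 0.000614). This value depends on the prior count, because 2 control libraries were at 0, and with the GC slope as a covariate the adjusted p was 0.365. SNORD12B of ZFAS1 had 86 counts in all, 34 of them in control replicate 6. Mature snoRNAs are usually shorter than the fragments such libraries keep, and reads counted at a snoRNA can come from the intron of its host.

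Some members start beside a gene on the other strand. Where the annotated genes do not overlap at their starts, this is a divergent or bidirectional start. The annotated starts overlap for ZFAS1 and ZNFX1, for GAS5 and ZBTB37, and for the second SNHG28 entry and AL590560.1. By that annotation these pairs are not divergent. For 6 tested members a gene starting within 1000 bases on the other strand was also tested. ZFAS1 and ZNFX1, a helicase and antiviral RNA sensor whose start is 248 bases away, moved in opposite directions. ZNFX1 stood at 127.3, 137.3 and 170.5 CPM with miR-122-5p and at 222.1, 247.4 and 256.0 in controls, and it fell by 0.75 on the log2 scale (SE 0.08). SNHG1 and SLC3A2, the heavy chain of amino acid transporters at a distance of 188 bases, also differed in direction. SLC3A2 stood at 238.3, 272.9 and 291.8 CPM with miR-122-5p and at 276.9, 318.8 and 337.4 in controls, with overlap, and fell by 0.21 (SE 0.07, adjusted p = 0.0118). That call was lost with the GC slope as a covariate (log2 -0.11, adjusted p = 0.574).

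At 2 starts both genes rose in the fit without GC terms. RPS2, a ribosomal protein gene 99 bases from SNHG9, stood at 1047, 1232 and 1443 CPM with miR-122-5p and at 701.5, 771.2 and 837.8 in controls, a log2 fold change of 0.69 ± 0.07 beside 1.03 ± 0.26 for SNHG9. TRAF7, a ubiquitin ligase gene 340 bases from SNHG19, rose by 0.35 ± 0.08 on the log2 scale beside 0.94 ± 0.25 for SNHG19. The rise of TRAF7 was 0.05 after the GC and length correction and 0.12 with the GC slope as a covariate. Neither TRAF7 nor SNHG9 was called in either of these fits, and SNHG19 was called in the first only. RPS2 was called in both (log2 0.48 and 0.47). ZBTB37, a zinc finger gene 800 bases from GAS5, was not called (0.05 ± 0.21), nor was AC015802.4 beside SNHG16 (0.12 ± 0.55). Of the genes beside members too low to test, BARD1 at SNHG31 (log2 -0.50) and AL590560.1 at the second SNHG28 entry (-0.58) fell, and ACAA2 at SNHG22 (0.14) was not called. No test of a relation within these pairs was made.

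**Figure D4:**
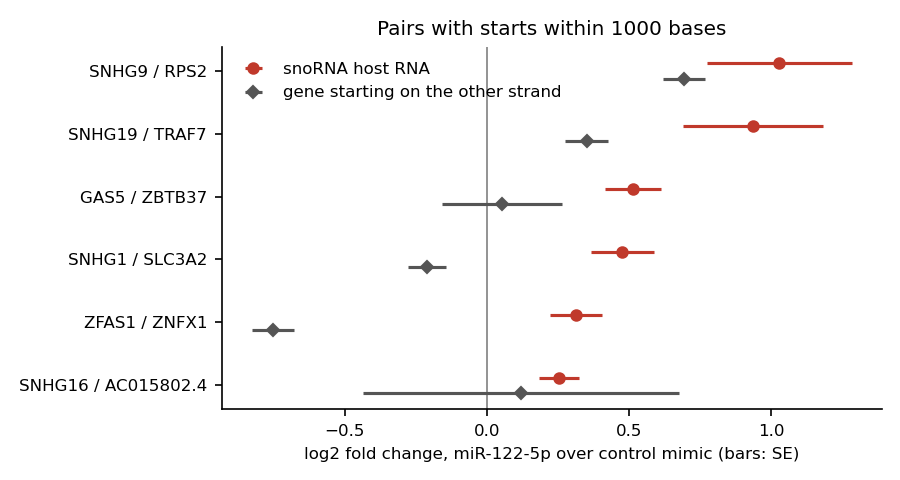
Log2 fold change (miR-122-5p over control mimic, bars SE) of 6 snoRNA host RNAs (red circles) and of the gene that starts within 1000 bases on the other strand (grey diamonds). ZNFX1 (-0.75) and SLC3A2 (-0.21) lie on the other side of 0 from ZFAS1 and SNHG1, while RPS2 (0.69) and TRAF7 (0.35) lie on the same side as SNHG9 and SNHG19.

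Among the proteins that hold box C/D snoRNAs, 3 of 4 rose: the methyltransferase FBL (0.55 ± 0.08 on the log2 scale), SNU13 (0.40 ± 0.06) and NOP58 (0.18 ± 0.07). NOP56 was at -0.24 ± 0.10 (adjusted p = 0.0504). Of the 4 H/ACA proteins 3 rose as well: NHP2 (1.28 ± 0.16), NOP10 (0.47 ± 0.14) and the pseudouridine synthase DKC1 (0.34 ± 0.09), while GAR1 was at 0.10 ± 0.12. NHP2 stood at 21.4, 24.9 and 27.7 CPM with miR-122-5p and at 6.13, 10.2 and 15.1 in controls, without overlap. With the GC slope as a covariate 1 protein of each set remained called, SNU13 and DKC1. Of 12 assembly and maturation factors 4 rose, among them PIH1D1 (0.59 ± 0.08) and RUVBL2 (0.56 ± 0.07) of the chaperone complexes, and 2 fell, RPAP3 (-1.08 ± 0.10) and the cap methylase TGS1 (-0.76 ± 0.10). Their median was -0.03. In the fit with the GC slope 3 rose and 1 fell, and PIH1D1 (log2 0.29, adjusted p = 0.0652) and TGS1 (log2 -0.31, adjusted p = 0.174) were not called.

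RNA levels of genes in the pathway known to remove spliced host RNAs changed in no common direction, and the activity of the pathway was not measured. Of 16 genes of nonsense-mediated decay and the exon junction 3 rose and 4 fell (18.8% and 25%), with a median of 0.03. Over all tested genes 24.2% rose and 26.2% fell. UPF3A (0.69 ± 0.13) and the exon junction subunit RBM8A (0.65 ± 0.10) rose, and the kinase SMG1 (-0.54 ± 0.08) and its partner SMG8 (-0.52 ± 0.10) fell. With the GC slope as a covariate none of the 16 was called. Of 6 coding messages known as targets of the pathway 5 rose, with a median of 0.51: GADD45B (0.63 ± 0.08), GADD45A (0.60 ± 0.13), NAT9 (0.59 ± 0.09), TBL2 (0.43 ± 0.07) and UPP1. ATF4 was at 0.07 ± 0.06. With the GC slope as a covariate 2 of the 6 were called.

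Coding hosts of snoRNAs were taken in 2 lists, ribosomal and other. Of 24 ribosomal protein hosts 22 rose and none fell, with a median log2 fold change of 0.52, close to that of the noncoding members. Examples are RPS3 (0.76 ± 0.07), RPL7A (0.75 ± 0.07) and RPS2 (0.69 ± 0.07). RPL23A (0.69 ± 0.28) and RPL17 (-0.22 ± 0.17) were not called, and with the GC slope as a covariate 16 rose. Ribosomal protein genes have many processed copies, so reads shared with a copy make single values uncertain. Of 15 other coding hosts 7 rose, including the elongation factors EEF1B2 (0.54 ± 0.06) and EEF2 (0.47 ± 0.06) and DKC1, and the chaperone HSPA8 fell (-0.65 ± 0.08). Their median was 0.01. In the fit with the GC slope 4 of the 15 rose and 1 fell, and EEF2 was not called (log2 0.25, adjusted p = 0.0548). Of 11 regulators of TOP messages 4 rose and 1 fell, with a median of 0.13. The translation repressor EIF4EBP1 had the largest change (1.20 ± 0.09), from a median of 80.0 CPM in controls to 179.9 with miR-122-5p. The mTOR partner MLST8 (0.63 ± 0.12) and EIF4EBP2 (0.26 ± 0.07) rose and LARP4 fell (-0.51 ± 0.11). With the GC slope as a covariate 2 of the 11 rose and 1 fell, and MLST8 and LARP4 were not called. The 1 that fell there was RPTOR (log2 -0.67, adjusted p = 0.000147), which was not called without the GC terms (0.17 ± 0.16).

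The tested genes outside the members whose level followed GAS5 most closely were RPS4X (Pearson r 0.948, Spearman rho 0.825), GON7 (0.947 and 0.909) and SPG21 (0.947 and 0.930). These describe 12 libraries, as deviations from group means, and share the libraries' depth and composition. Among the members the closest to GAS5 by Pearson r were SNHG6 (r 0.805, rho 0.559) and SNHG8 (0.785 and 0.825). By rho SNHG29 (r 0.612, rho 0.790) was closer than SNHG6. SNHG28 (-0.704 and -0.503), SNHG32 (-0.650 and -0.322) and SNHG7 (-0.582 and -0.622) ran the other way. Control replicate 1 was high for GAS5, SNHG6 and SNHG14 and low for SNHG32. Without control replicates 1 and 6, an alternative chosen after seeing the data, 19 members rose and none fell, as with all libraries.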

How the data were processed

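Per the labels' protocols, Trizol RNA (1 µg) went into NEBNext Ultra RNA libraries. The authors deposited raw read counts per gene, without normalization. The submitters' processing notes list hg38 as the build, with HISAT2 2.0.5 and featureCounts 1.5.0-p3. Not given in the sources used here are the strand setting, the annotation and the RNA selection. Without strand, reads of overlapping genes on opposite strands cannot be told apart. The table's columns named for the controls were read as the control mimic group from their names and numbers.

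The members and the gene lists were chosen with earlier results of these data known. All 58735 gene identifiers were found in GENCODE 29 (GRCh38), the source of symbols, exons and transcripts, and RefSeq supplied starts and the microRNA. Of the genes, 28537 had 0 counts. In R 4.3.3, filterByExpr kept 15471, TMM factors were computed, and edgeR 4.0.16 compared 6 with 6 libraries by its robust quasi-likelihood test. P-values were adjusted over the tested genes by Benjamini-Hochberg, and 0.05 was the threshold. CPM values are TMM-scaled, and log2 CPM used a prior count of 2. In simulated counts for this comparison (15230 genes), changes were planted in 49 or 50 genes per size. Planted log2 changes of 0.25 were recovered for 4% of genes, of 0.5 for 46%, of 1 for 83.7% and of 2 for 100%. Among the genes without a planted change 6 calls were false. Far fewer genes changed there than were called in the data (50.4%), which makes the adjusted threshold stricter in the simulation. No library was a copy of another: within groups the chi-square per degree of freedom ran from 7.84 to 72.9.

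Values per group are given for the 4 members with the highest level per length, the 5 called members with the largest rise, the 5 with the largest fall (there were none) and GAS5, ZFAS1, DANCR and EPB41L4A-AS1, and from each list up to 4 genes of smallest p are named. Other names, such as UPP1, RPL23A, RPL17, ATF4, NOP56 and GAR1, complete small counts. Some items that these rules name are not reported here. Alternatives were DESeq2 1.42.0, limma-voom (limma 3.58.1), other scalings and filters, an adjusted p under 0.01, a replicate block, GC and length offsets (natural splines, 4 degrees of freedom), the GC slope as a covariate, and each library left out.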

Additional observations from a re-analysis of the deposited data

Results flagged for a closer look

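In 6 of 54 group and member combinations, 1 library stood far from the other 5 of its group (its gap to the nearest, as a part of the range of the group, was above Dixon's critical value). Chance gives about 1 in 20. Control replicate 1 had 3 of the 6. It was the highest control for SNHG6 (85.0 CPM, the next 62.7) and for SNHG14 (7.49, the next 5.55) and the lowest for SNHG32 (11.4, the next 16.5). For SNHG6, miR-122-5p replicate 1 was also far above its group (87.1 CPM, the next 74.1). SNHG9 was low in miR-122-5p replicate 3 (2.82 CPM, the next 3.87), and SNHG20 was low in miR-122-5p replicate 6 (1.44, the next 2.32).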

How the results depend on the processing

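Over the alternatives 17 to 21 members rose and none fell (DESeq2 21, no low-count filter 20, each of these with 32 members tested; the replicate block 19; the block with GC and length offsets 18; libraries left out in turn 17 to 19), except that 14 rose with the GC slope as a covariate and 15 at an adjusted p under 0.01. Over all genes 3744 rose and 4055 fell; with the GC slope as a covariate 1140 rose and 1909 fell, and the share of rises among the calls was 37.4% in place of 48.0%. The cause was not tested. With libraries left out in turn 3454 to 3840 rose and 3727 to 4027 fell, and with the replicate block 3702 and 3882. Deviations of same-numbered libraries were nearly uncorrelated (r -0.10 to 0.07), which cannot show whether a number marks a shared culture or day. No member reversed in a fit that called it. ZFAS1 and SNHG9 were also not called with the block and GC and length offsets (adjusted p = 0.326 and 0.0632), where SNHG4 was (0.0462), and SNHG16 was not called with the GC slope (log2 0.30, adjusted p = 0.0697). SNHG3, SNHG6, SNHG10 and SNHG14 did not reach 0.01. With GC and length offsets NOP56 fell and LARP4 was not called. The precision was lower for members under 300 counts (median SE 0.20 against 0.10).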

Other observations

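Counts at the snoRNAs of box H/ACA hosts were low. SNORA13 of EPB41L4A-AS1 had 71 counts over the 12 libraries, SNORA26 of DANCR 54 and SNORA71C of SNHG17 54.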
